A study of Mus musculus with 6 samples.

Results

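Core autophagy genes are described here in mouse muscle stem cells with and without deletion of Opa1. The set is the 33 genes whose GRCm38 symbols name the initiation, nucleation, lipid transfer, conjugation and ATG8 steps of autophagosome formation. All 33 were found among the 49652 gene rows, and all 33 passed the filter on low counts that kept 18832 genes.

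The 6 libraries, 3 WT and 3 KO, were made from hindlimb muscle of uninjured mice aged 8 to 10 weeks. Both groups carried the label OPA1-Pax7-CreERT2 and received tamoxifen by gavage for 5 days, with cells collected 3 days later. WT animals were Cre negative and KO animals were Cre positive, so Cre itself sets the groups apart along with Opa1, and no group has Cre without the Opa1 deletion. Pax7-CreERT2 is a tamoxifen-inducible recombinase expressed from the Pax7 locus, which is active in muscle stem cells. Satellite cells were sorted as positive for alpha-7 integrin and VCAM and negative for Sca1, CD45 and CD31, and RNA was extracted from the fresh cells. The labels do not say how many animals made up a library, so p-values measure the spread between these libraries, which may in part be technical.

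Macroautophagy encloses cytoplasm, including damaged mitochondria, in a double membrane that fuses with the lysosome. The ULK1 complex starts the process, the class III phosphatidylinositol 3-kinase complex marks the site, and WIPI, ATG2 and ATG9 proteins supply lipid. Ubiquitin-like conjugation systems then attach ATG8 proteins to the membrane after ATG4 proteases have trimmed them. Basal autophagy is known to be needed for the quiescent state of muscle stem cells.

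The libraries held 41410136 to 56606886 reads in genes. Opa1, an inner mitochondrial membrane fusion GTPase on chromosome 16 (29579334 to 29654884, plus strand, GRCm38), stood at 68.2, 31.4 and 68.8 CPM in WT replicates 1 to 3 and at 17.5, 34.4 and 27.1 CPM in KO replicates 1 to 3. CPM is the count of a gene scaled to library size with TMM factors. The second WT library fell between the KO values, which goes against its label, and is named below as the library labelled WT replicate 2. Opa1 had a log2 fold change (KO minus WT) of -1.09 (SE 0.371), and -1.38 without that library, with an adjusted p of 0.99998 in edgeR's quasi-likelihood test. Permuting the libraries exactly (two-sided, log2 CPM) gave p = 0.2, and 0.1 is the smallest value this design allows. The 10 muscle stem cell markers summed to 5060 to 6010 CPM, with Pax7 at 252 to 453 CPM. Cxcr4 was the exception on this list, at only 7.19 to 22.6 CPM. No other marker of the list fell below the 90.8 CPM of Itga7 in the library labelled WT replicate 2. Among markers of the excluded cells, Ptprc (CD45) was at 0 to 0.651 CPM, Pecam1 (CD31) at 4.36 to 22.5 CPM and Ly6a (Sca1) at 4.62 to 19.2 CPM. The 7 cell cycle markers summed to 194, 20.8 and 187 CPM in WT, against 438, 33.2 and 25.3 CPM in KO, and the 8 immediate early genes to 14100, 26100 and 4880 CPM in WT, against 11300, 33000 and 29500 CPM in KO. For both sums the range within each genotype was larger than the difference between the group means. Summed markers of 7 other cell types overlapped between the groups, for example at 104 to 153 CPM in WT and 89.1 to 143 CPM in KO for endothelial genes and at 4.12 to 7.93 CPM in WT and 3.39 to 13.4 CPM in KO for leukocyte genes. Tek, at 77.8 to 109 CPM, held most of the endothelial sum in every library. Fibro-adipogenic markers summed to 835, 1030 and 1300 CPM in WT, against 670, 820 and 888 CPM in KO, so KO replicates 1 and 2 were below every WT library. Dpt held most of this sum, at 763, 977 and 1200 CPM in WT, against 600, 748 and 792 CPM in KO. None of the other listed genes, Pdgfra, Ly6a, Dcn, Pi16 and Smoc2, had KO replicates 1 and 2 both below every WT library. Smooth muscle and pericyte markers summed to 530 to 1070 CPM in WT, against 425 to 798 CPM in KO, with KO replicates 2 and 3 below every WT library. Acta2 held most of this sum, at 981, 313 and 504 CPM in WT, against 740, 260 and 286 CPM in KO. Rgs5 was at 56.1, 144 and 65.6 CPM in WT, against 39.4, 110 and 142 CPM in KO. None of Rgs5, Myh11, Kcnj8 and Cspg4, the rest of the list, had KO replicates 2 and 3 both below every WT library. The part of either sum in the values of the autophagy genes was not tested.

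Upstream sequence is shown for Atg4a, Atg4b and Atg4d, the ATG4 genes whose differences between the groups are described first below. Each line gives the 250 bases before the RefSeq start site on GRCm38.p6, 5′ to 3′ in the direction of the gene, and capitals mark GC boxes (GGGCGG or its reverse complement), a common element of promoters rich in CpG. The windows lie at chrX:140956657-140956906, chr1:93754655-93754904 and chr9:21265035-21265284, all on the plus strand.
Atg4a: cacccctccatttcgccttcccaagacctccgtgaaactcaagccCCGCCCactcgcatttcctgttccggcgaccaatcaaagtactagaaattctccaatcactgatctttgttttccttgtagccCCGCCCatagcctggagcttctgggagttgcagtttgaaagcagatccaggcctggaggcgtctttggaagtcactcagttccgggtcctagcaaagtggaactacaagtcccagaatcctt
Atg4b: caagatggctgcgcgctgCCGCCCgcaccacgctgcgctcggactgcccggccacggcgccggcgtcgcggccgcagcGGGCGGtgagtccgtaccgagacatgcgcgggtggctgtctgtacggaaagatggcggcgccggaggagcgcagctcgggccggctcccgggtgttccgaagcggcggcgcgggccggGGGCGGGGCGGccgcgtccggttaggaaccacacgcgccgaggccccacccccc
Atg4d: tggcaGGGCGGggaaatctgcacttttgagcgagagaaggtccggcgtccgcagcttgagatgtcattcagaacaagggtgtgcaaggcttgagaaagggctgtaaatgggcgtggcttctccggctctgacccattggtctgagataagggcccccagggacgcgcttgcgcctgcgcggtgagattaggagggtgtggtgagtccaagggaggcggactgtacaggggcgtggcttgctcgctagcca
GC content was 52.4% for Atg4a, 78% for Atg4b and 60.4% for Atg4d, and they held 2, 4 and 1 GC boxes. The Atg4a window shown is the one that meets the start of its GENCODE transcript.

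Across the set, no gene differed between KO and WT after adjustment. The share of all genes called by edgeR's quasi-likelihood test at an adjusted p under 0.05 was 0%, and 0 of the 33 members were called, with 1 at an unadjusted p under 0.05, against 2.09% of all genes. DESeq2 called 0 members, against 24 of 30583 genes (0.0785%), and limma voom called 0 members and 0% of all genes. Log2 fold changes ran from -0.56 (Atg4a) to 0.63 (Atg4d), with 20 positive and 13 negative and a median of 0.05, beside a median of 0.01 over all genes. The 95% interval of the log2 fold change lay inside -1 to 1 for 27 of the 33 members, against 44.6% of all genes. It lay inside -0.5 to 0.5 for 9 members, against 12.3% of all genes, which include genes at lower CPM than any member. The intervals thus bounded most members to less than a doubling or halving, and smaller differences may go undetected with 3 libraries a group. All 3 KO libraries lay above all 3 WT libraries for 2 members, Atg4b and Atg4d, against 3.43% of all genes, and below them for 0 members, against 3.12%. In either direction the share over all genes was 6.55%, so 2 of 33 is near the background. In bulk RNA, fewer cells with a transcript and less transcript per cell cannot be told apart.

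**Figure D1:**
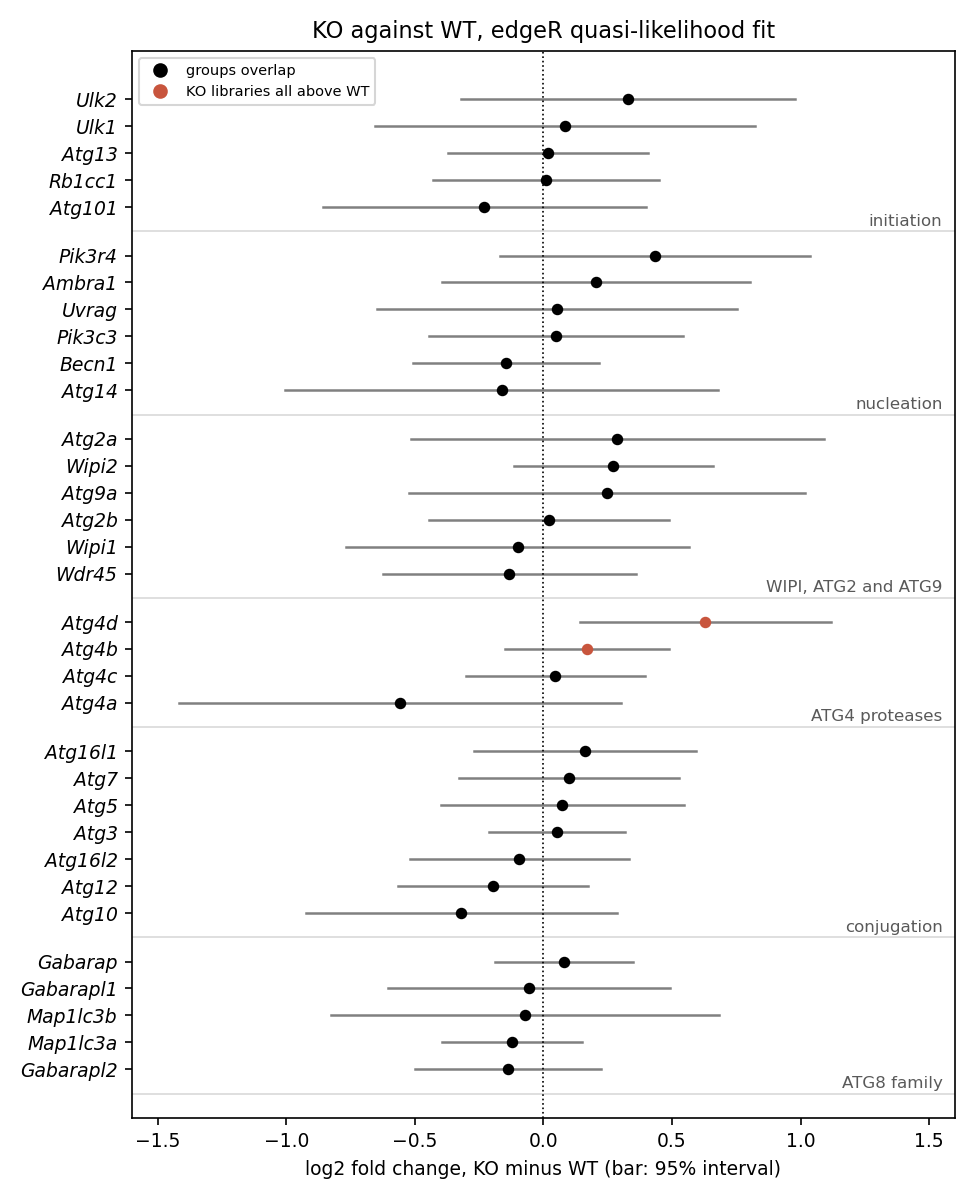
Log2 fold change (KO minus WT) of the 33 core autophagy genes, grouped by step, from edgeR's quasi-likelihood fit; the dot is the estimate and the bar its 95% interval, with 3 libraries a group. Only the interval of Atg4d, from 0.14 to 1.12, lies wholly on one side of 0, and the red dots mark Atg4b and Atg4d, whose KO libraries all lay above WT.

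The ATG4 cysteine proteases cut the C terminus of ATG8 proteins before lipid attachment and release them from membranes afterwards. Atg4d, on chromosome 9 (21265293 to 21277772, plus strand), stood at 34.5, 28.3 and 22.1 CPM in WT, against 38.8, 47.9 and 44.5 CPM in KO. The groups did not overlap, with KO replicate 1 as the lowest KO library and WT replicate 1 as the highest WT library. Means were 43.8 ± 4.61 CPM in KO and 28.3 ± 6.19 CPM in WT (SD, n = 3 each). The log2 fold change was 0.63 (SE 0.207), with an unadjusted p of 0.0188 and an adjusted p of 0.99998 in edgeR's quasi-likelihood test, so Atg4d did not pass over all genes. Without the library labelled WT replicate 2 it was also 0.63, and over the 6 libraries left out in turn it ranged from 0.48 to 0.80. Exons of Kri1, a nucleolar protein gene on the opposite strand, cover 19.3% of the Atg4d exon length, and the strand setting of the counting is not given in the sources used here. Kri1 stood at 8.86, 11.7 and 6.54 CPM in WT, against 11.1, 13.9 and 12.1 CPM in KO, so its groups overlapped, and its part in the Atg4d values was not tested.

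Atg4b encodes the ATG4 enzyme with the broadest activity on ATG8 proteins. It stood at 85.9, 69.0 and 82.2 CPM in WT, against 88.7, 91.8 and 86.2 CPM in KO. The groups touched closely, with KO replicate 3 just above WT replicate 1. Its log2 fold change was 0.17 (SE 0.135, adjusted p 0.99998 in edgeR's quasi-likelihood test), and 0.08 without the library labelled WT replicate 2, which was the lowest. Atg4c, at 34.2, 40.6 and 35.4 CPM in WT, against 37.3, 38.7 and 37.8 CPM in KO, had a level per length of 11.1 CPM per kb of exon, against 10.1 for Atg4b, the highest of the family. With the APPRIS principal transcript as the length, a choice made after the data were seen, that order turned, at 11.8 CPM per kb for Atg4c and 20.1 for Atg4b. The Atg4c libraries lay close together, with a coefficient of variation of 6.1%.

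Atg4a, which prefers GABARAP-type substrates, went the other way in 2 of the 3 KO libraries. It stood at 12.9, 11.4 and 16.0 CPM in WT, against 13.8, 6.03 and 7.59 CPM in KO. KO replicates 2 and 3 were below every WT library, and KO replicate 1 lay within the WT range. Its log2 fold change of -0.56 (SE 0.364, with a 95% interval from -1.42 to 0.30) moved to -0.98 without KO replicate 1 and to -0.35 without KO replicate 2. Atg4a lies on the X chromosome, and the libraries differ in sex-linked transcripts. Xist was at 355, 0.0209 and 508 CPM in WT, against 401, 393 and 244 CPM in KO, and the Y-linked Ddx3y at 0.0354, 226 and 23.3 CPM in WT, against 0.141, 22.9 and 90.2 CPM in KO. WT replicate 3 and KO replicates 2 and 3 thus held both transcripts. Replicate 1 of each group held almost only Xist, and the library labelled WT replicate 2 almost only Ddx3y. The 3 lowest libraries for Atg4a, the library labelled WT replicate 2 and KO replicates 2 and 3, were also the 3 with the lowest cell cycle sums and the highest immediate early sums given above. The part of these differences in the Atg4a values was not tested. A gene named after Atg4a, Atg4a-ps, is counted separately at 0.338 to 1.29 CPM. The sequences of the pair were not compared, so whether reads are shared by both is uncertain.

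The make-up of the protease family can be read within each library from CPM per kb of exon, a level per length. Atg4d made up 15.7%, 13.6% and 10.3% of the summed ATG4 level in WT, against 16.5%, 21% and 20% in KO. Atg4a made up 16.1%, 15% and 20.4% in WT, against 16.1%, 7.19% and 9.30% in KO. The ratio of Atg4d to Atg4a was 0.976, 0.907 and 0.504 in WT, against 1.03, 2.91 and 2.15 in KO. This ratio was chosen after the values were seen and has no test. Atg4b and Atg4c together held the larger share in every library. The summed ATG4 level was 30.2, 28.65 and 29.55 CPM per kb in WT, against 32.4, 31.5 and 30.7 in KO, so the KO libraries all lay above WT, as they did for 2 of the 4 genes summed. With APPRIS principal lengths the sums were 43.0, 39.3 and 41.8 CPM per kb in WT, against 45.8, 45.0 and 43.5 in KO, which is the same order between the groups. The sums were looked at after the values were seen and have no test.

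**Figure D2:**
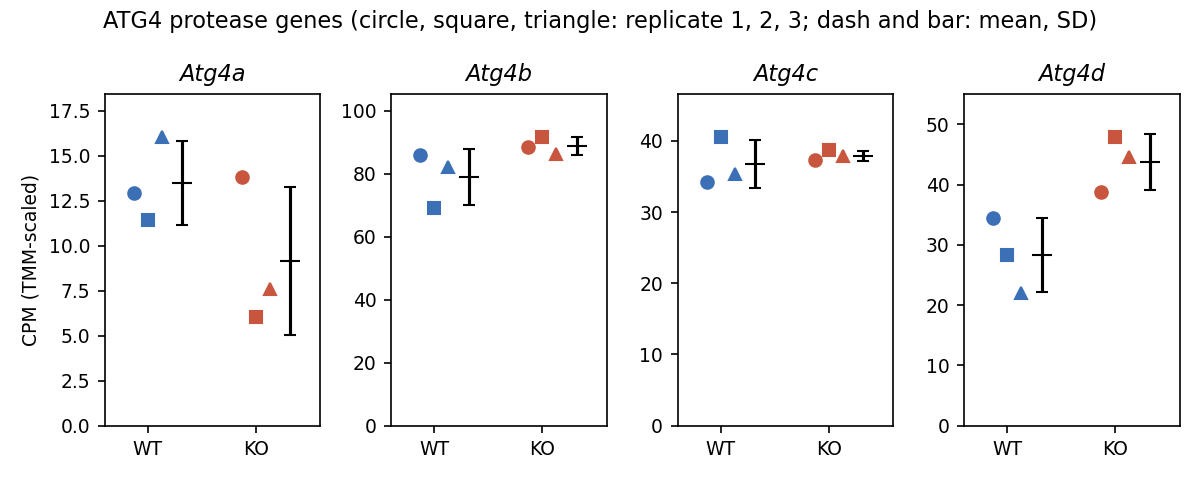
Normalised read counts (CPM after TMM scaling, axes from 0) of the 4 ATG4 genes in 3 WT and 3 KO libraries; symbols give the replicate number, and the dash and bar the mean and SD of the group. Atg4d lies between 22.1 and 34.5 CPM in WT and between 38.8 and 47.9 CPM in KO, while Atg4a is at 6.03 and 7.59 CPM in 2 of the KO libraries.

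Genes of the initiation complex overlapped between the groups in all 5 cases. Ulk2, a kinase that acts beside ULK1, had the smallest p of the step. It stood at 20.2, 33.6 and 40.1 CPM in WT, against 32.7, 43.6 and 41.6 CPM in KO, and WT replicate 1 was the lowest of the 6 libraries. Its log2 fold change of 0.33 (SE 0.275) moved to 0.09 without WT replicate 1. Ulk1 itself, the kinase that nutrient sensing acts on, stood at 29.0 ± 8.96 CPM in WT, against 30.7 ± 9.53 CPM in KO. Atg101, the HORMA-domain partner of ATG13, had the highest level per length of the step, at 33.2, 57.2 and 60.7 CPM in WT, against 42.7, 35.1 and 50.9 CPM in KO (log2 fold change -0.23, SE 0.266). Atg13 and Rb1cc1, the scaffold FIP200, had log2 fold changes of 0.02 and 0.01, and Rb1cc1 was at 150.4 ± 29.4 CPM in KO and 149 ± 19.2 CPM in WT.

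Genes of the class III phosphatidylinositol 3-kinase complex also overlapped between the groups. Pik3r4, the VPS15 regulatory subunit, had the smallest p of the step. It was at 31.3, 19.9 and 32.9 CPM in WT, against 36.8, 30.5 and 46.1 CPM in KO. KO replicate 3 was the highest and the library labelled WT replicate 2 the lowest, and the log2 fold change of 0.43 (SE 0.256) was 0.24 without the latter and 0.26 without KO replicate 3. Becn1, the scaffold beclin 1, had the highest level per length of the step. It was at 134, 133 and 173 CPM in WT, against 142, 119 and 137 CPM in KO (log2 fold change -0.15, SE 0.153). Exons of Cntd1 on the opposite strand cover 43.9% of the Becn1 exon length, and Cntd1 was at 5.26 to 8.44 CPM.

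Pik3c3, the catalytic subunit VPS34, stood at 57.5 ± 9.16 CPM in WT, against 59.5 ± 12.5 CPM in KO. Atg14, which directs the complex to autophagosomes, stood at 27.7, 52.3 and 28.3 CPM in WT, against 20.2, 41.95 and 34.6 CPM in KO. It varied 2.58-fold between libraries, with KO replicate 1 the lowest and the library labelled WT replicate 2 the highest. Its log2 fold change of -0.16 turned to 0.20 without the latter and to 0.08 without KO replicate 1. Uvrag, the subunit of the endosomal form of the complex, had a log2 fold change of 0.05 and was highest in WT replicate 1 and KO replicate 1, at 36.8 and 36.3 CPM. Ambra1, a positive regulator of the complex, stood at 21.4 ± 2.21 CPM in WT, against 24.6 ± 7 CPM in KO.

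Genes for lipid supply showed the same overlap. Wipi2, which reads phosphatidylinositol 3-phosphate and recruits ATG16L1, had the smallest p of the step. It stood at 75.7, 56.5 and 61.7 CPM in WT, against 69.0, 84.7 and 80.3 CPM in KO, and WT replicate 1 lay between KO replicates 1 and 3 (log2 fold change 0.27, SE 0.164). Wdr45, the X-linked WIPI4 gene, had the highest level per length of the step and was at 107, 116 and 135 CPM in WT, against 82.8, 105 and 139 CPM in KO. Exons of Gm45208 on the same strand cover 24.7% of its exon length. KO replicates 1 and 3 were the extremes, so the spread within KO was larger than the difference between the groups. Wipi1 had a log2 fold change of -0.10. The lipid transfer genes Atg2a and Atg2b had 0.29 and 0.02, and Atg2a, the lowest member per length, was at 6.09 ± 1.37 CPM in WT, against 7.44 ± 1.97 CPM in KO. Atg9a, the lipid scramblase carried on vesicles, had 0.25 (SE 0.325), and exons of Gm29253 on the same strand cover 31.8% of its exon length.

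Conjugation genes varied least between libraries at their most abundant member. Atg3, the E2-like enzyme that transfers ATG8 to lipid, stood at 158, 161 and 175 CPM in WT, against 171, 172 and 170 CPM in KO. With a coefficient of variation of 4.0% over the 6 libraries it was the steadiest member. Atg10, the E2-like enzyme for ATG12, had the smallest p of the step. It stood at 24.7, 24.4 and 15.9 CPM in WT, against 13.8, 19.6 and 18.7 CPM in KO. WT replicate 3 lay among the KO libraries, and the log2 fold change of -0.32 (SE 0.256) lay between -0.50 and -0.18 whichever library was left out. Atg7, the shared E1-like enzyme, had 0.10 (SE 0.181), and Atg5, which is joined to ATG12, had 0.07 (SE 0.201). Atg12 stood at 75.7 ± 12.2 CPM in WT, against 66.1 ± 3.97 CPM in KO. Atg16l1, which places the conjugate on the membrane, had 0.16 and its paralog Atg16l2 had -0.09.

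ATG8 genes, whose lipid-bound products coat the autophagosome and bind cargo receptors, were the most abundant group per length. Levels over the 6 libraries were 132.9 ± 6.72 CPM per kb for Gabarap, 95.2 ± 5.89 for Map1lc3a, 88.2 ± 17.8 for Gabarapl1, 85.7 ± 25.4 for Map1lc3b and 26.4 ± 3.05 for Gabarapl2 (SD, n = 6 libraries). Map1lc3a, Gabarapl1 and Map1lc3b did not differ beyond their spread. The order depends on the length used. Lengths here are unions of all annotated exons, and with the longest APPRIS principal transcript, a choice made after the data were seen, Map1lc3b moved to 254 CPM per kb, above Gabarap at 181. Each of the 5 members had 2355 or more counts in every library. Exons of 1700101I11Rik on the opposite strand cover 28.3% of the Gabarapl1 exon length.

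Gabarap stood at 248, 233 and 234 CPM in WT, against 244, 267 and 244 CPM in KO, with a log2 fold change of 0.08 (95% interval -0.19 to 0.35). Map1lc3a, which had the smallest p of the family, stood at 120.5, 114 and 117 CPM in WT, against 105, 103 and 115 CPM in KO. KO replicates 1 and 2 were below every WT library, and KO replicate 3 fell within WT (log2 fold change -0.12, SE 0.116, adjusted p 0.99998 in edgeR's quasi-likelihood test). Gabarapl2, also known as GATE-16, had -0.14 (SE 0.154).

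Map1lc3b, the LC3B gene used most often to follow autophagosomes, varied strongly within each genotype. It stood at 441, 618 and 922 CPM in WT, against 428, 692 and 765 CPM in KO, so replicate 1 was the lowest library of each group. Gabarapl1 had the same order within WT, at 148, 173 and 221 CPM, and was lowest in KO replicate 1, at 125 CPM, against 205 and 192 CPM in KO replicates 2 and 3. The log2 fold changes were -0.07 (SE 0.319) for Map1lc3b and -0.05 (SE 0.232) for Gabarapl1. Each changed sign without WT replicate 3 (0.25 and 0.11) or without KO replicate 1 (0.14 and 0.13). Relative to Map1lc3a per length, Map1lc3b stood at 0.575, 0.848 and 1.24 in WT, against 0.642, 1.05 and 1.04 in KO. The mix of ATG8 transcripts therefore differed between libraries of 1 genotype, while the group means of this ratio were 0.888 ± 0.336 and 0.913 ± 0.235.

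**Figure D3:**
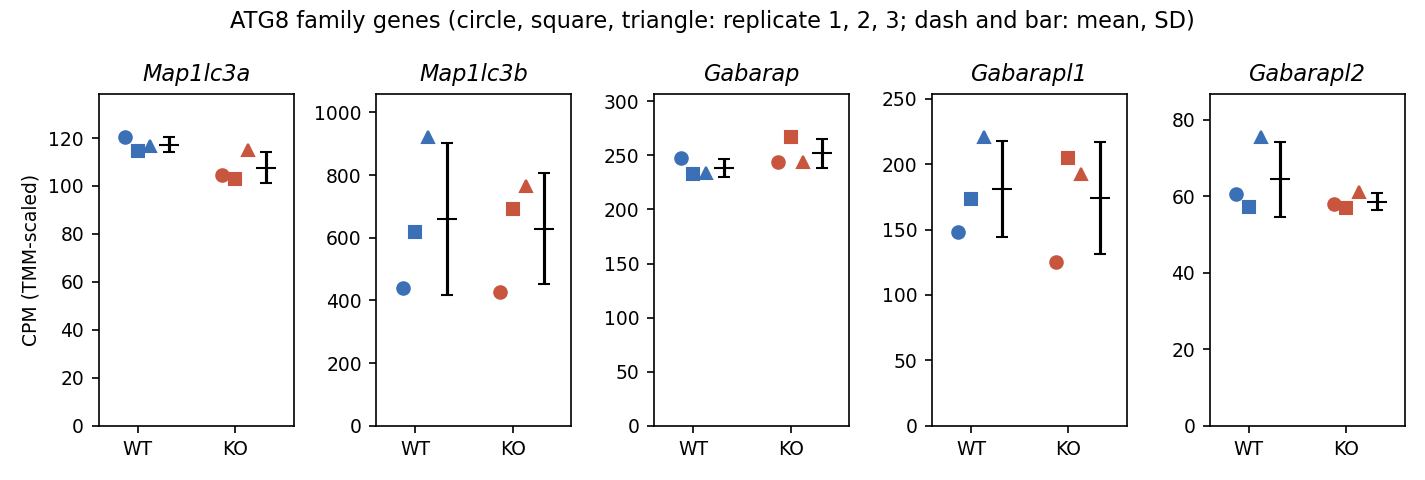
Normalised read counts (CPM after TMM scaling, axes from 0) of the 5 ATG8 family genes in 3 WT and 3 KO libraries; symbols give the replicate number, and the dash and bar the mean and SD of the group. Map1lc3b runs from 428 to 922 CPM within the plotted libraries, whereas Gabarap stays between 233 and 267 CPM.

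Looked at library by library, WT replicate 3 held the highest value for 10 of the 33 members and KO replicate 1 the lowest for 12. Over all genes these shares were 18.2% and 15.6%, against 30.3% and 36.4% of the members. KO replicate 3 held the lowest value of 0 members, against 13.9% of all genes. Members were steadier than genes at large, with a median coefficient of variation of 16.9% against 28.6% for all genes. The 10226 genes with a mean CPM in the members' range of 6.77 to 644 had 18.6%, close to the members. In that range 5.89% of genes had an absolute log2 fold change over 0.5, as did 2 of the 33 members, Atg4a and Atg4d.

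**Figure D4:**
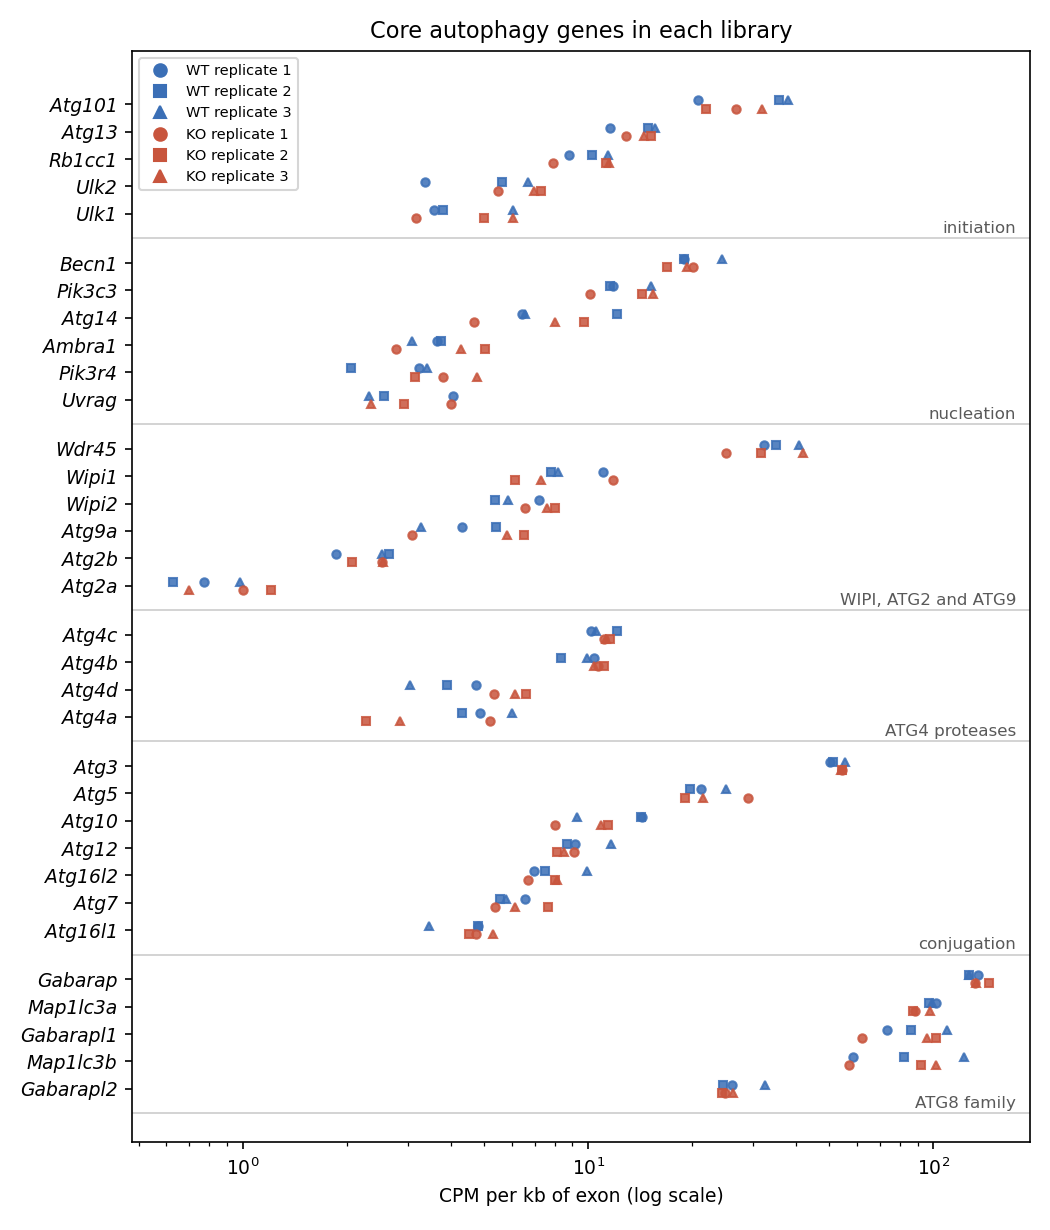
Level per length (CPM per kb of exon, log axis) of the 33 genes in each of the 6 libraries, grouped by step and ordered by mean; blue is WT, red is KO and the symbol gives the replicate. Levels run from 0.880 CPM per kb on average for Atg2a to 132.9 for Gabarap, and 10 members lie in the upper 20% of all genes kept.

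Promoter windows were looked at for what the members share in sequence. Of the 33 genes, 27 matched the RefSeq table on GRCm38.p6 (250 bases before to 50 after the start site). Median GC content of their windows was 61.7%, against 52.7% over all windows. GGGCGG, or its reverse complement, was found in windows of 17 of the 27 genes (63.0%), against 38.2% of 27025 genes; this motif was added after the data were seen. For GC content and motifs alike, the background was not limited to genes kept by the filter, which all members passed. Whether the members differ from other expressed genes was therefore not tested. Motif letters of regulators known to act on autophagy genes were also looked for, and these motifs are longer than the GC box and rarer over all genes. TCACGTGA, the core of the CLEAR element bound by TFEB and its relatives, was found in 1 gene, Atg3 (3.7%), against 1.12% of all genes. TGACGTCA, the full cAMP response element, was found in 2 genes, Atg5 and Atg16l2 (7.41%), against 2.03%. Counts of 1 and 2 are too small to compare with the shares over all genes. TGTTTAC, the FOXO core (both strands), was found in 0 of the 27, against 4.05%, which says only that these letters are not in the windows. The 3 matches are shown with their surroundings, 5′ to 3′ in the direction of the gene, with the motif in capitals, at chr16:45158746-45158775 (plus strand), chr10:44268327-44268356 (plus strand) and chr7:101302088-101302117 (minus strand).
Atg3: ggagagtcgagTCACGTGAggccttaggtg
Atg5: cgtggtcttggTGACGTCAtctccgggcgc
Atg16l2: tgctgccgcccTGACGTCAtggagtccccg
A match is a description of the letters and not evidence that a factor binds there. As given above, Atg3, Atg5 and Atg16l2 did not differ between the groups after adjustment.

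Of 67 other genes of the pathway, 0 were called by edgeR's quasi-likelihood test, by DESeq2 or by limma voom, and 0 had an unadjusted p under 0.05 in edgeR. They comprise 9 other core factors, 13 cargo receptors, 15 genes of autophagosome fusion with the lysosome and 30 genes of upstream control. Their log2 fold changes were positive for 41 and negative for 26, with a median of 0.04. They ran from -0.70 (SE 0.913) for Ddit4 to 0.93 (SE 0.826) for Sesn2. Sesn2 was at 12.35 CPM in KO replicate 1, against 1.32 to 4.75 CPM in the other libraries. By list, positive members numbered 7 of 9, 7 of 13, 9 of 15 and 18 of 30. Epg5, a tether between autophagosome and lysosome, had the smallest p of the fusion list. It was at 3.66, 3.80 and 2.00 CPM in WT, against 4.26, 6.29 and 4.60 CPM in KO, so its KO libraries all lay above WT (log2 fold change 0.68, SE 0.395, and 0.44 without WT replicate 3). Plekhm1, an adaptor of the late endosome in the same list, had 0.44 (SE 0.297), and 0.17 without KO replicate 2.

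Among cargo receptors, Wdfy3, a scaffold for aggregate clearance, had 0.28 (SE 0.175), and Tax1bp1 had -0.14 (SE 0.13), which were 0.16 without KO replicate 3 and -0.05 without WT replicate 3. Of the other core factors, Rubcn, an inhibitor of the kinase complex, had 0.18 (SE 0.207), which was 0.05 without the library labelled WT replicate 2. Vmp1, a lipid scramblase of the endoplasmic reticulum, had -0.14 (SE 0.165), and -0.02 without KO replicate 2. Among upstream genes, Bcl2l1 and Bcl2, whose products bind beclin 1, had 0.30 (SE 0.158) and 0.23 (SE 0.174), and Bcl2 had 0.07 without WT replicate 3. Bcl2l1 stood at 34.7, 41.8 and 33.9 CPM in WT, against 41.6, 48.3 and 45.7 CPM in KO, where only KO replicate 1 lay below the highest WT library. Rptor, the mTORC1 scaffold, was the other gene of these lists with KO libraries all above WT, at 17.4 to 20.6 CPM in WT, against 21.2 to 23.2 CPM in KO (log2 fold change 0.18, SE 0.176). It was named after its values were seen. Epg5 and Rptor were thus 2 of 67 genes with KO libraries all above WT, against 3.43% of all genes, which is near the background.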

How the data were processed

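RNA-seq was analysed from 6 libraries of sorted mouse muscle stem cells. The authors deposited raw read counts per gene, 1 file per library and with no normalization, as the values show. The submitters' processing notes name HTSeq 0.6.1p2 for counting, STAR 2.6.0c for alignment to GRCm38, and cutadapt 2.5 with Trim Galore 0.5.0 for trimming, beside DESeq2 and edgeR. Which annotation release HTSeq used, and whether it counted by strand, were not given in the sources used here. The 5 summary rows entered neither library sizes nor tests, and no_feature reads were 11.15% to 17.02% of all reads.

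Symbols, positions and exon lengths came from GENCODE M21 (GRCm38), which matched 49320 of 49652 rows. KO was compared with WT in R 4.3.3 by edgeR 4.0.16 (quasi-likelihood, robust, TMM, package filter, no covariate), with Benjamini-Hochberg adjustment over 18832 genes and a threshold of 0.05. The SE was taken as the size of the log2 fold change over the root of F; the prior count was 0.125. DESeq2 1.42.0, limma 3.58.1 (voom), sva 3.50.0, other scalings, no filter, no robust estimation, a replicate block and each library left out were alternatives, and DESeq2 on the filtered genes was added after the data were seen. Figures used Python 3.11.15, pandas 2.3.3 and matplotlib 3.10.9.

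Values in every library are given for members whose groups do not overlap and, in each step, for the member with the smallest p and the one with the highest level per length; Map1lc3b, Gabarapl1, Atg4a and Atg14 were added after their values were seen. Wider lists name the 2 genes with the smallest p, and other genes of these lists were added after their values were seen. Members and lists were chosen with earlier results of these data known. Detection was also tried on simulated counts for KO against WT over 18832 genes. At the estimated dispersions, 12% of genes changed 2-fold and 52% of those changed 4-fold were found. When the dispersion was instead fixed at 0.05, these shares rose to 43% and 99%. At either setting 7 genes were called falsely. The simulation was not limited to the members, whose median SE was 0.207, against 0.378 for all genes. How often a change of either size would be found among the members was therefore not measured.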

Additional observations from a re-analysis of the deposited data

How the results depend on the processing

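Under 9 alternatives with all 6 libraries and with each of the 6 libraries left out in turn, 0 members were called and the median log2 fold change of the members stayed between -0.01 and 0.08. Over all genes 0 were called under each of these except DESeq2, which called 24 (14 higher and 10 lower) of 30583 genes without the filter on low counts. DESeq2 on the genes kept by that filter, an alternative chosen after seeing the data, called 20 of 18785 (11 higher and 9 lower); the cause was not tested. With the replicate block 0 genes were called, and 515 had an unadjusted p under 0.05 against 393 without it. Same-numbered libraries deviated together at correlations of 0.245, 0.105 and -0.072, so the numbers were not taken to pair them. The Opa1 log2 fold change was -1.38 to -0.87 with a library left out.

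Members near 0 changed sign. Atg13 had 0.000 with upper-quartile scaling, -0.008 without the filter and -0.013 with a surrogate variable. Rb1cc1 had -0.003 and -0.015 in the first pair, -0.001 with limma voom and with the replicate block, and -0.055 with the surrogate variable. Atg2b had -0.004 without the filter. With a library left out, 15 members changed sign: Atg13 (-0.103 to 0.102), Atg14 (-0.41 to 0.203), Atg16l2 (-0.192 to 0.075), Atg2b (-0.119 to 0.115), Atg4c (-0.001 to 0.124), Atg5 (-0.118 to 0.178), Atg7 (-0.065 to 0.209), Gabarapl1 (-0.198 to 0.134), Map1lc3b (-0.293 to 0.247), Pik3c3 (-0.074 to 0.212), Rb1cc1 (-0.085 to 0.165), Ulk1 (-0.138 to 0.365), Uvrag (-0.178 to 0.345), Wdr45 (-0.347 to 0.03) and Wipi1 (-0.424 to 0.075). The other 18 kept their sign, but 15 of them moved by over 1.5 times, some to near 0: Ambra1 to 0.004 and Atg9a to 0.027 without KO replicate 2, and Becn1 to -0.013, Gabarapl2 to -0.008 and Atg16l1 to 0.018 without WT replicate 3. With 231 to 49302 counts for a member in a library, counting error is small beside the differences between libraries.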

Other observations

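Transcripts of Foxo3, a transcription factor known to activate Map1lc3b and Gabarapl1 in muscle, stood at 83.0, 121 and 226 CPM in WT, against 85.8, 189.5 and 193 CPM in KO. Replicate 1 was lowest in each group and WT replicate 3 the highest of all. Foxo1 stood at 94.5, 176 and 205 CPM in WT, against 104 to 155 CPM in KO, with replicate 1 lowest in each group too. Foxo4 and Tfe3, of the same upstream list, were instead highest within WT in replicate 1 and lowest in replicate 3. Foxo4 stood at 13.2, 10.2 and 8.68 CPM in WT, against 10.9, 13.1 and 8.91 CPM in KO. Tfe3 stood at 36.2, 22.8 and 21.1 CPM in WT, against 31.7, 35.7 and 30.8 CPM in KO. Tfeb, which drives the lysosomal and autophagy network, stood at 4.11 to 7.60 CPM in WT, against 4.68, 11.9 and 4.77 CPM in KO. Among other stress-linked genes of the upstream list, Trp53inp1, whose product binds ATG8 proteins, stood at 64.3, 178.5 and 290 CPM in WT, against 132, 231.5 and 290.2 CPM in KO. Ddit4, an inhibitor of mTORC1, ran from 23.5 CPM in WT replicate 1 to 511 CPM in WT replicate 3, against 109, 157 and 286 CPM in KO. The sestrin genes of that list were mixed within KO. Sesn2, at 12.35, 3.28 and 1.32 CPM in KO, and Sesn3, at 44.6, 32.45 and 30.2 CPM, were highest in KO replicate 1. Sesn1 was lowest there, at 309.5, 330 and 366 CPM in KO. These genes were picked after their values were seen. For KO against WT they are among the 67 genes of the wider lists, of which edgeR's quasi-likelihood test called 0, and the order of the libraries within a group was not tested.

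Sqstm1, the p62 cargo receptor, stood at 671, 691 and 827 CPM in WT, against 628, 933 and 901 CPM in KO (log2 fold change 0.17, SE 0.188, adjusted p 0.99998 in edgeR's quasi-likelihood test). KO replicates 2 and 3 lay above every WT library, and KO replicate 1 below all of them.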
